A study of Rattus norvegicus with 4 samples.

Results

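The genes of cholesterol and fatty acid synthesis, with the regulators that set their transcription, were followed in S16 cells, an immortalized rat Schwann cell line. They were taken by symbol, as the 33 genes of these pathways that were fixed by name and that the expression files listed, out of 30708 genes in all. Of these, 7 belong to the mevalonate and isoprenoid steps, 11 to the steps from squalene to cholesterol, 5 to the regulators of the sterol regulatory element binding proteins (SREBPs), and 10 to the fatty acid steps.

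RNA-Seq had been performed on unmodified S16 cells so that cells lacking the rSOX-4 enhancer could be compared with them, and only the unmodified cells were analysed here. There were 2 populations, at passage 9 and at passage 39, and the labels name no altered allele and no agent for either. The passage 9 population was the line from which the rSOX-4 mutants were later made. Each population gave 2 libraries that the labels call technical replicates, which makes 4 libraries in all. Both populations are of a single cell line, which the labels call myelinating, grown in medium with serum, and no neurons are named as grown with it. With 1 population per passage, no p-value was computed, and errors are SDs over pairs of means or exact intervals that cover counting error only.

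Cholesterol and fatty acids are made from acetyl-CoA in the cytosol and the endoplasmic reticulum. Acetyl-CoA enters the mevalonate pathway to give isoprenoids, squalene, lanosterol and at last cholesterol, or is turned into malonyl-CoA and built into fatty acids, which are then desaturated and elongated. SREBPs are membrane-bound transcription factors that are held in the endoplasmic reticulum with their escort Scap by the Insig proteins when sterols are plentiful, and that switch on these genes once they have been carried to the Golgi and cut free. Myelin is rich in cholesterol and in long-chain lipids, and Schwann cells make most of the cholesterol of their myelin themselves.

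SREBPs are weak activators alone and act with NF-Y, which binds CCAAT, and with Sp1, which binds GC boxes. RefSeq promoter windows of the GRCr8 build, from 250 bases before to 50 bases after a start, were matched by symbol to 27 of the 33 genes. These are windows of a newer build than the one the reads were aligned to. The letters TCACNCCAC, CCAAT and GGGCGG were searched on both strands in the 300 bases of each window. CCAAT was found in 20 of the 27 genes (74.1%), against 37.5% of all 33469 windows and 39.4% of the 7751 windowed genes that were expressed at 1 RPKM or more. GGGCGG was also found in 20 of the 27 genes (74.1%), which is closer to its share among expressed genes (66.8%) than to its share among all windows (33.1%). Both motifs stood in 15 genes (55.6%), against 26.5% of expressed genes, no CCAAT overlapped a GGGCGG, and Scd and Elovl1 held neither. The sterol response element as spelled here, TCACNCCAC, was in none of the 27 genes and in 1.12% of all windows. These are matches of letters in a window, and no binding was measured.

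The CCAAT nearest to the start and before it lay 10 to 189 bases upstream, with a median of 78 bases. Stretches around it are shown for the 4 genes with a window that had the largest differences between libraries described below, for the regulators Srebf2 and Insig1, and for Mvk and Ebp, which did not share that difference, so that promoters of genes on either side can be read together. They were chosen after the values were seen. Each is written 5′ to 3′ on the strand of the gene, and capitals mark CCAAT or its complement ATTGG and GGGCGG or its complement CCGCCC.
Tm7sf2, chr1:212789596-212789660, minus strand: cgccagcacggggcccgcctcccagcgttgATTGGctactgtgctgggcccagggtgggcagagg
Hmgcs1, chr2:53382141-53382205, plus strand: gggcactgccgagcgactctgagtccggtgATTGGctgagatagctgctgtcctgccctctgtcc
Acly, chr10:85963668-85963732, minus strand: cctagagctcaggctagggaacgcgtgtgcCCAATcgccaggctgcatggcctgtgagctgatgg
Hsd17b7, chr13:84722755-84722809, minus strand: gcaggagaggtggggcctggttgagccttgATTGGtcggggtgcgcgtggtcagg
Srebf2, chr7:115543148-115543212, plus strand: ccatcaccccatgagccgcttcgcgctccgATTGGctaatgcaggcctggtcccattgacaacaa
Insig1, chr4:8057928-8057992, minus strand: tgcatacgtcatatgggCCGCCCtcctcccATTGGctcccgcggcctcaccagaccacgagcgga
Mvk, chr12:47819504-47819547, minus strand: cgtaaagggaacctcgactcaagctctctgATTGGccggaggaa
Ebp, chrX:16971347-16971411, plus strand: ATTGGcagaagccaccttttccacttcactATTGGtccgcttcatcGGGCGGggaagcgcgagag

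Library totals of 34.2 to 41.4 M reads (M, 1000000) were recovered from the values, and 3 reads of a gene of 2500 bases correspond to 0.0290 to 0.0350 RPKM (reads per kilobase of gene and per M reads). These totals exceed the depth per cell line that the study's methods state, the reason was not tested, and all counting intervals rest on the recovered reads. The libraries did not group as labelled. Where the technical replicate number was shared and the passage was not, the mean chi-square per gene of the recovered reads was 1.15 and 1.40, where counting noise alone gives a mean near 1. Between the technical replicates of a passage it was 74.4 and 77.7, and over the lipid synthesis genes alone it was 233 and 236. At a given ratio this chi-square grows with the reads of a gene, so it does not compare the size of differences between sets of unlike level. Whether the passages or the numbers mark the separate cell populations cannot be told from these values, and the sources used here state only that the passages do. Every difference is therefore given both by number and by passage, and every mean level with its SD between the means of the passages and its SD between the means of the numbers.

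The labelled cell type was checked first. All 9 Schwann cell markers used here were listed at 1 RPKM or more, with a summed level of 3524 to 4379 RPKM per library. Of the fibroblast, neuron, melanocyte, macrophage and adipocyte lists, 2 of 5, 1 of 5, 1 of 4, 1 of 4 and 0 of 5 genes reached 1 RPKM. The fibroblast sum of 3349 to 3883 RPKM was almost wholly Col1a1, while Dcn, Lum and Thy1 stayed at or near 0, as did Snap25 and Syt1 of neurons, Tyr of melanocytes and Ptprc of leukocytes. The others that reached 1 RPKM were Pdgfra of the fibroblast list at 5.35 RPKM, Tubb3 of the neuron list at 56.2 RPKM, Pmel of the melanocyte list at 8.72 RPKM and Cd68 of the macrophage list at 1.40 RPKM, as means of the 4 libraries.

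S16 cells expressed nearly all of these genes. Of the 33 genes, 31 had a mean of at least 1 RPKM, 27 exceeded 10 RPKM and 11 exceeded 50 RPKM. The median of the mean levels was 24.2 RPKM over all 33 genes, and 11.1 RPKM over the 11025 genes that reached 1 RPKM. The 33 genes include those below that minimum, Acacb and Elovl6, both of the fatty acid steps. The summed level was 1580.3 RPKM, with an SD of 1.21 RPKM between passages and of 249 RPKM between numbers (n = 2 means each), of which the fatty acid steps gave 50.4%, the steps from squalene to cholesterol 23.6%, the mevalonate steps 20.7% and the regulators 5.35%. Scd alone gave 21.6% to 23.0% of the sum in each library.

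**Figure D1:**
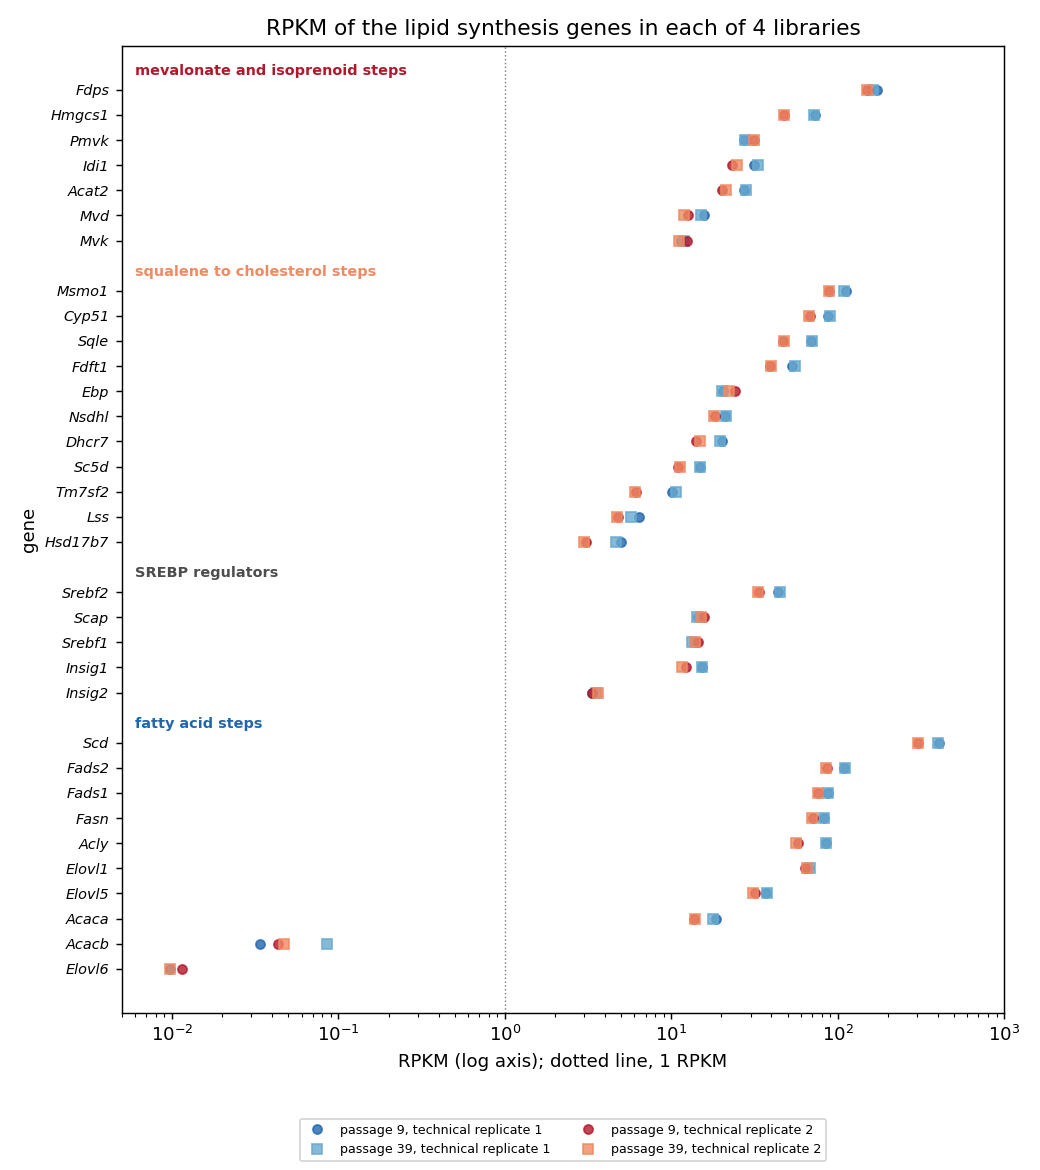
RPKM of each gene on a log axis, with a point for each of the 4 libraries, circles for passage 9 and squares for passage 39, blue for technical replicate 1 and red or orange for technical replicate 2. Scd and Fdps are the highest in every library, Acacb and Elovl6 lie below 0.1 RPKM, the Elovl6 value of 0 in passage 39, technical replicate 1, is not drawn, and for most genes the blue points lie to the right of the red ones.

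The ends of the order were fixed. Scd and Fdps held the first and second place among the 33 genes in all 4 libraries, and Acacb and Elovl6 the last. Of the 32 neighbouring pairs in the order of mean levels, 17 kept their order within all 4 libraries, and in 9 of these, such as Sqle over Fdft1 and Fdft1 over Srebf2, the exact intervals were apart in every library. Taken over all 4 libraries together, the ranges of 27 pairs overlapped.

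The levels differed by technical replicate number in most genes. For 25 of the 31 genes with at least 1 RPKM, both second libraries lay below both first ones, while this was so for 30.5% of all 11025 genes. Both second libraries lay above both first ones for 4 genes (Pmvk, Ebp, Srebf1 and Scap), against 57.2% of all genes, although the sign of each of the 4 turned under a scaling or a length correction given below, and the libraries overlapped for Mvk and Insig2. The rule of no overlap at any fold was added after the data had been seen. The median difference of the 31 genes, as the second minus the first library on the log2(RPKM + 1) scale, was -0.34, and that of all genes was 0.10. On the same scale 24 of the 31 genes lay below the 25th percentile of all genes (-0.10) and 5 lay below their 5th percentile (-0.48). A difference of at least 1.5-fold on this scale without overlap, the size used for a call, was reached by 2 genes, Hmgcs1 and Tm7sf2, both lower, against 3.17% of all genes lower and 2.88% higher. The shift of the pathway was thus made of many differences under 1.5-fold on this scale.

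**Figure D2:**
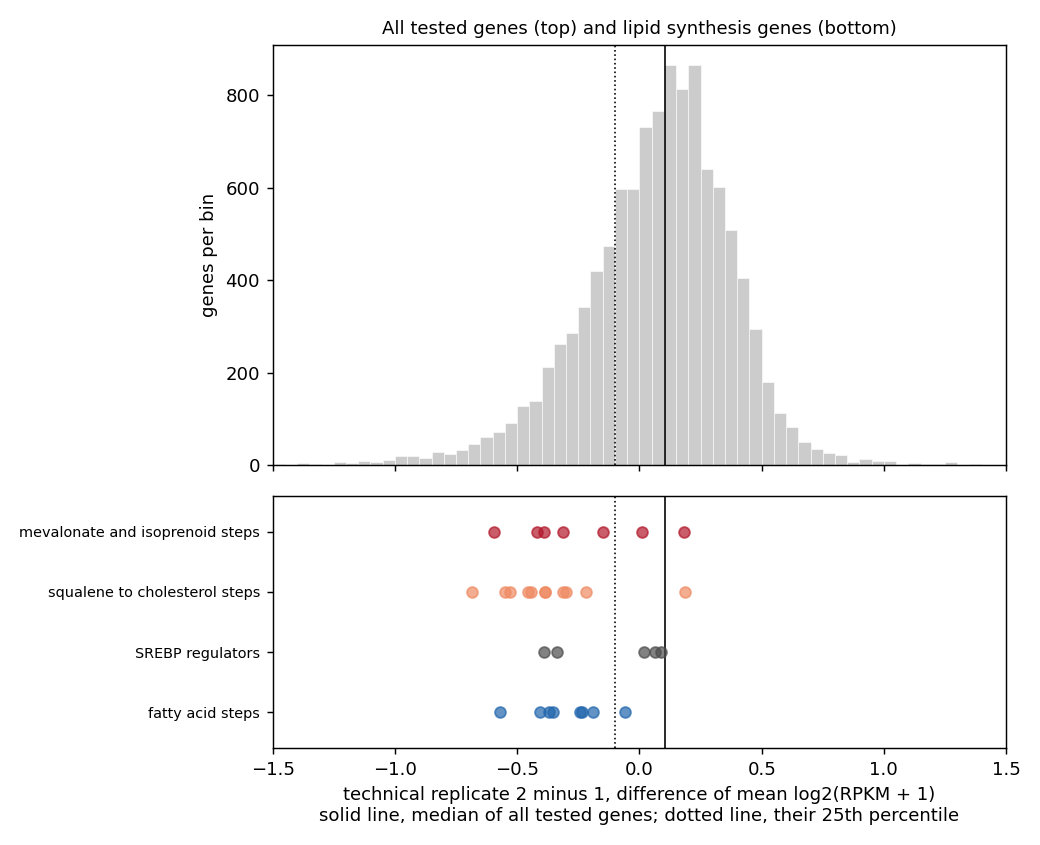
Differences between technical replicate numbers (second minus first, mean log2(RPKM + 1) over both passages), as a histogram of genes per bin of 0.05 for the 11025 genes tested, 39 of which lie outside the axis, and as points for the 31 lipid synthesis genes by group. The solid line is the median of all genes, 0.10, the dotted line is their 25th percentile, -0.10, and 24 of the 31 points lie to the left of the dotted line.

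Counting error was smaller than most of these differences. The exact 95% intervals of the ratio of the second to the first library were below 1 in both passages for 24 genes and above 1 in both for 3 (Pmvk, Ebp and Scap). How many of all genes had such intervals was not counted. Between the libraries of passage 9 and of passage 39, the median chi-square per gene was 14.5 and 13.3 over all genes. Over the lipid synthesis genes it was 76.9 and 70.4, a value that grows with reads as well as with the ratio. Differences beyond counting error were thus common among all genes. The intervals of the passages overlapped for all 32 genes in which both ratios could be formed. Recovered reads behind the 31 genes ran from 314 for Tm7sf2 to 84459 for Scd in a library.

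**Figure D3:**
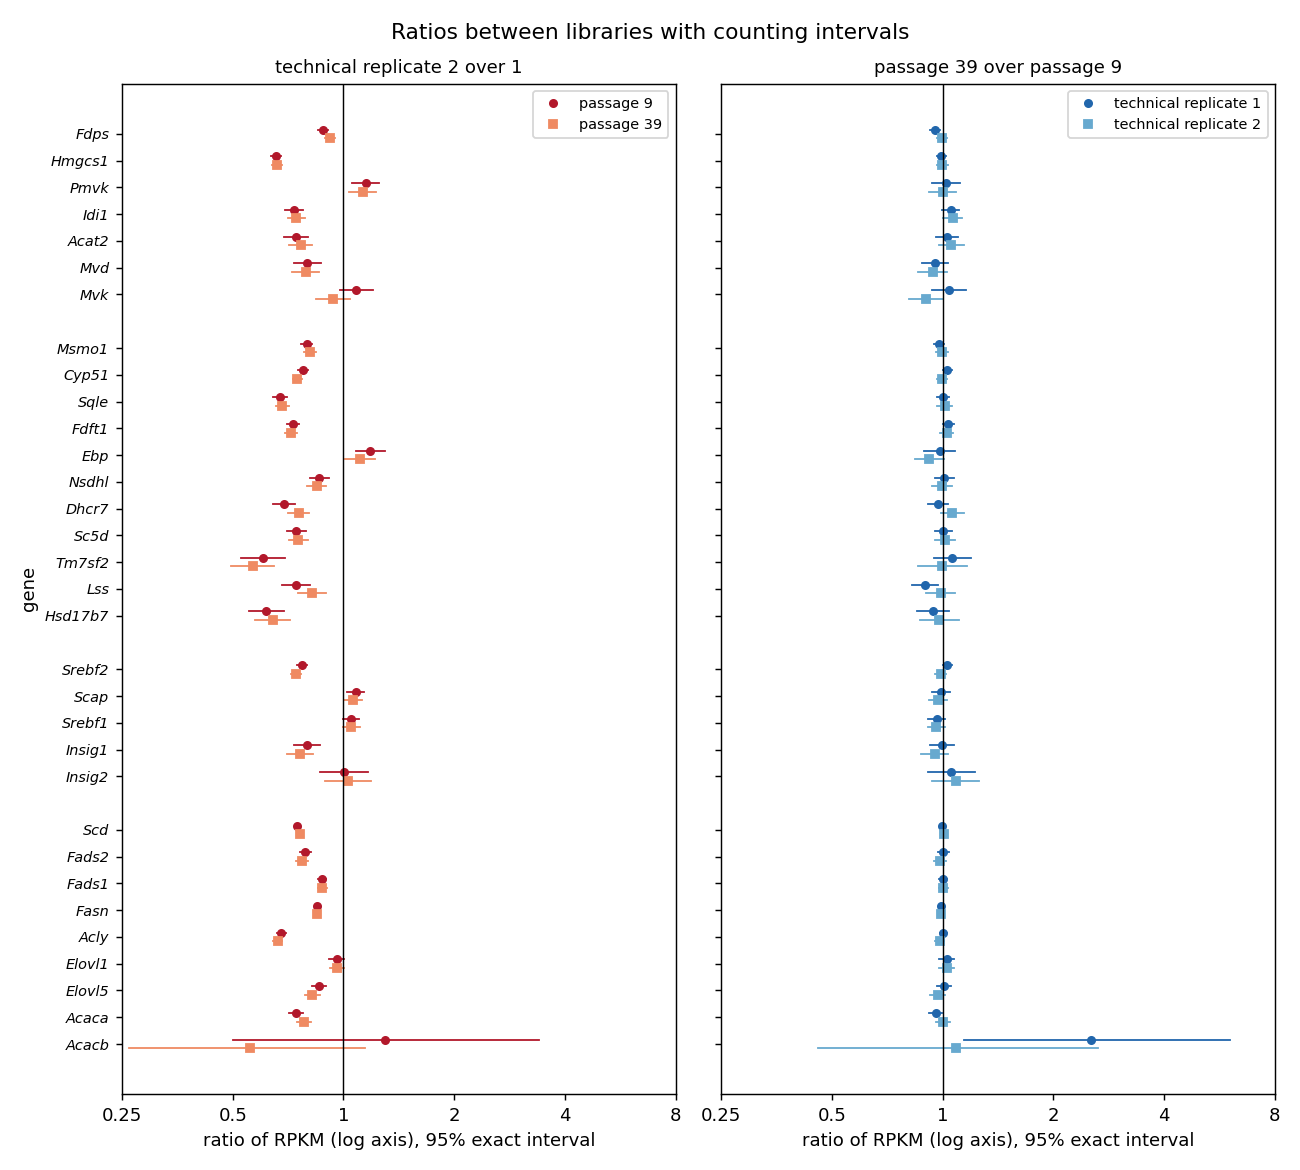
Ratios of RPKM with exact 95% intervals on a log axis, left for technical replicate 2 over 1 in each passage and right for passage 39 over passage 9 in each technical replicate, for the 32 genes with reads in every library. On the left 24 genes lie below 1 with both intervals, and on the right none lies to either side of 1 with both.

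In the mevalonate steps Fdps, the farnesyl diphosphate synthase that supplies both sterols and prenyl groups, was the most abundant, at 159 RPKM (SD 2.83 between passages and 11.7 between numbers), 13.6 times the lowest, Mvk. It read 171 against 151 RPKM at passage 9 and 163 against 151 at passage 39, where here and from here on the value of the first library stands before that of the second. The ratio of second to first was 0.882 (95% interval 0.854 to 0.910) at passage 9 and 0.921 (0.892 to 0.951) at passage 39, which places Fdps among the smaller differences.

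Hmgcs1, the cytosolic enzyme that makes the substrate of the committed step, had the largest difference of this group. It was listed at 72.9 against 47.9 RPKM at passage 9, and at 72.4 against 47.8 at passage 39. Both first libraries were high, both second ones were low, and the passages were nearly superimposed. Its ratio was 0.656 (0.637 to 0.676) at passage 9 and 0.661 (0.641 to 0.680) at passage 39, a log2 difference of -0.59 ± 0.0067 (SD over 2 passages).

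Acat2, the thiolase at the head of the pathway, and Idi1, the isomerase that balances the isoprenoid building blocks, were lower in the second libraries by smaller amounts. Acat2 read 27.2 against 20.2 RPKM at passage 9 and 28.0 against 21.4 at passage 39. Idi1 read 31.6 against 23.2 RPKM at passage 9 and 33.2 against 24.7 at passage 39. Mvd, the decarboxylase that forms isopentenyl diphosphate, had 15.8 against 12.6 and then 15.0 against 11.9 RPKM. In all 3 the libraries separated by number, at log2 differences of -0.39, -0.42 and -0.31. In RefSeq a gene named as like Acat2 (Acat2l1) is its neighbour, and Idi1 overlaps Wdr37, so that their values rest on how reads of such genes were assigned.

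The kinases between Hmgcs1 and Mvd did not share this. Pmvk, the phosphomevalonate kinase, read 27.2 against 31.3 RPKM at passage 9 and 27.7 against 31.3 at passage 39, higher in both second libraries, with a log2 difference of 0.18 that turned to -0.04 relative to genes of similar length. Mvk, the mevalonate kinase, read 11.4 against 12.4 RPKM at passage 9 but 11.9 against 11.2 at passage 39. The Mvk libraries overlapped, and its ratio intervals of 0.977 to 1.20 and 0.843 to 1.04 both included 1. Thus 5 of the 7 genes of the group had both second libraries below both first, 1 had both above and 1 overlapped, with a median of -0.31.

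The steps from squalene to cholesterol mostly shared a sign. In 10 of the 11 genes both second libraries were below both first, with a median of -0.39, and the summed level of the group was 0.771 and 0.768 times as high in the second as in the first library of passage 9 and passage 39. Levels spanned 25.4-fold, from Hsd17b7, a keto-reductase of sterols, at 3.93 RPKM (SD 0.12 between passages and 1.26 between numbers) to Msmo1, the methylsterol oxidase, at 99.9 RPKM (SD 0.91 and 15.4).

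Tm7sf2, a sterol reductase that acts just after the lanosterol demethylase, differed most of all 33 genes. It was listed at 10.1 against 6.10 RPKM at passage 9 and at 10.7 against 6.09 at passage 39. The ratio was 0.604 (0.526 to 0.693) and 0.567 (0.495 to 0.648), and the log2 difference was -0.69 ± 0.060 (SD over 2 passages). Hsd17b7 came close to it in ratio, with 4.96 against 3.06 RPKM at passage 9 and 4.68 against 3.00 at passage 39, or ratios of 0.617 (0.552 to 0.689) and 0.642 (0.574 to 0.717). With its low level the log2(RPKM + 1) difference of Hsd17b7 was -0.53 and did not reach the size used for a call, which it did with a pseudocount of 0.1 RPKM.

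Squalene is made by Fdft1 and oxidized by Sqle, an oxygen-requiring and rate-controlling step. Sqle read 69.5 against 46.8 RPKM at passage 9 and 69.7 against 47.5 at passage 39, with a ratio of 0.674 (0.646 to 0.703) and 0.682 (0.654 to 0.711). Fdft1 read 53.4 against 38.9 RPKM at passage 9 and 55.4 against 40.0 at passage 39. Both genes were high in the first and low in the second libraries, with log2 differences of -0.55 and -0.45.

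Lss, which closes the sterol rings, was among the least abundant of the group, at 6.40 against 4.75 and then 5.73 against 4.70 RPKM. The lanosterol demethylase Cyp51 was among the most abundant, at 87.2 against 67.7 and then 89.9 against 67.4 RPKM. Msmo1 had 112 against 89.1 RPKM at passage 9 and 109.6 against 88.9 at passage 39. The sign was shared by all 3, with log2 differences of -0.30, -0.39 and -0.31.

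Among the last steps, Sc5d, the desaturase before the final reductions, read 14.8 against 11.0 and then 14.9 against 11.2 RPKM. Dhcr7, which reduces 7-dehydrocholesterol to cholesterol, read 20.3 against 14.0 and then 19.7 against 14.9 RPKM. Nsdhl, a dehydrogenase of the demethylation complex, had the smallest difference of the genes that were lower, -0.22, from 21.2 against 18.2 and then 21.4 against 18.1 RPKM. Ebp, the sterol isomerase, was the exception. Its values were 20.4 against 24.2 RPKM at passage 9 and 20.1 against 22.3 at passage 39, higher in both second libraries, with ratios of 1.18 (1.08 to 1.30) and 1.11 (1.01 to 1.22) and a log2 difference of 0.19 that became -0.03 relative to genes of similar length.

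The regulators were split. Srebf2, which encodes the SREBP that acts mainly on cholesterol genes, was the most abundant at 38.8 RPKM (SD 0.32 between passages and 7.58 between numbers) and was lower in the second libraries, at 43.5 against 33.6 RPKM at passage 9 and 44.8 against 33.2 at passage 39. Its ratio was 0.773 (0.749 to 0.798) and 0.742 (0.719 to 0.765). Srebf1, which encodes the SREBP that acts more on fatty acid genes, was at 13.7 against 14.4 and then 13.2 against 13.9 RPKM. The second libraries of Srebf1 were thus the higher ones by a log2 difference of 0.07, which became -0.02 under median-ratio scaling and -0.07 with a common sum, and its ratio intervals included 1. Accordingly the ratio of Srebf2 to Srebf1 was 3.17 and 3.38 in the first libraries and 2.33 and 2.39 in the second. Srebf1 overlaps Rai1 in RefSeq, and the study's methods state that reads were counted without strand. Whether the deposited values rest on that counting is not given, so how reads of the shared stretch were assigned is not known.

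Insig1 is itself a target of SREBPs and retains Scap, whereas Insig2 does the same and is less dependent on SREBPs. Insig1 read 15.3 against 12.2 RPKM at passage 9 and 15.2 against 11.6 at passage 39. Insig2 read 3.33 against 3.33 RPKM at passage 9 and 3.52 against 3.62 at passage 39. Insig1 separated by number, with ratios of 0.796 (0.735 to 0.862) and 0.762 (0.703 to 0.826), and Insig2 did not. Scap, the escort of SREBPs, had 14.5 against 15.6 and then 14.3 against 15.2 RPKM, a log2 difference of 0.09 that became -0.05 with a common sum. Of the 5 regulators, 2 had both second libraries below, 2 above and 1 overlapped, with a median of 0.02.

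In the fatty acid steps all 8 genes with at least 1 RPKM had both second libraries below both first, with a median of -0.30. Scd, the desaturase that makes monounsaturated fatty acids, was listed at 404 against 303 RPKM at passage 9 and at 402 against 306 at passage 39. It ranked 90th of the 30708 listed genes by mean level, and its ratio was 0.749 (0.741 to 0.757) and 0.761 (0.753 to 0.769). Its paralog Scd1, no member of the set, had 30.3 against 20.5 and then 31.2 against 20.2 RPKM, so that Scd exceeded Scd1 by 12.9- to 15.1-fold within a library. Reads that fit both paralogs would not have been counted if these values rest on the unique alignments that the study's methods describe.

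Acly, which makes cytosolic acetyl-CoA from citrate and feeds both pathways, had the largest difference of the group. It read 84.6 against 57.4 RPKM at passage 9 and 85.1 against 56.4 at passage 39. Its ratio was 0.678 (0.661 to 0.696) and 0.662 (0.645 to 0.680), and its log2 difference of -0.57 was just short of the size used for a call.

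Malonyl-CoA is made by Acaca in the cytosol and by Acacb at mitochondria, where it restrains fatty acid oxidation. Acaca read 18.5 against 13.8 RPKM at passage 9 and 17.7 against 13.8 at passage 39. Acacb, in the smallest whole numbers of reads that give its values, rested on 10 and 11 reads at passage 9 and on 21 and 14 reads at passage 39, or 0.0336 (0.0161 to 0.0618), 0.0436 (0.0218 to 0.0780), 0.0852 (0.0528 to 0.130) and 0.0474 (0.0259 to 0.0795) RPKM. The mean of Acaca was thus 304 times that of Acacb, and the difference by number was not detectable at this depth for Acacb. Fasn, the synthase that builds palmitate, read 83.1 against 70.6 and then 82.5 against 70.0 RPKM. Its ratios were 0.849 (0.835 to 0.864) and 0.849 (0.834 to 0.863). The log2 difference of Fasn was -0.23, which became -0.01 relative to genes of similar length. Acaca overlaps C10h17orf78 in RefSeq, and Fasn overlaps no gene there.

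The elongases differed widely in level. Elovl1, which extends saturated chains to very long ones, read 66.1 against 63.5 and then 67.9 against 65.2 RPKM. Elovl5, which extends polyunsaturated chains, read 37.2 against 32.0 and then 37.7 against 31.0 RPKM. Elovl6, which extends palmitate, had 1 read in each of 3 libraries and 0 in the first of passage 39, where the exact interval allows up to 0.0431 RPKM. Of these only Elovl5 had ratio intervals below 1 in both passages, 0.821 to 0.899 and 0.787 to 0.862, and those of Elovl1 included 1 in both.

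Fads1 and Fads2, neighbouring genes that encode the desaturases of polyunsaturated fatty acids, were of similar level. Fads1 read 86.9 against 76.0 RPKM at passage 9 and 87.1 against 76.3 at passage 39. Fads2 read 109.5 against 86.4 RPKM at passage 9 and 110.1 against 85.0 at passage 39. The ratio of Fads2 to Fads1 was 1.26 in both first libraries and 1.14 and 1.11 in the second ones.

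Differences between passages were small. The rule of 1.5-fold without overlap called no member by passage, against 0.00907% of all genes, which is 1 gene. However, 29 of the 31 genes separated by number, as did most of all genes (30.5% lower and 57.2% higher in the second libraries). Genes that separate by number could not meet that rule at any size of difference. The passages were therefore compared within each technical replicate number, a comparison added after the data had been seen. No member differed by 1.5-fold in the same direction within both numbers, against 0.00907% of all genes. Within both numbers 9 members were higher at passage 39, against 24.7% of all genes, and 11 were lower, against 26.6%, while 11 went opposite ways. The differences within a number ran from -0.14 for Mvk to 0.09 for Insig2 on the log2(RPKM + 1) scale, with medians of 0.0034 in the first and -0.0030 in the second libraries. Exact intervals of the ratio of passages excluded 1 for 7 members in the first libraries (Fdps, Fdft1, Lss, Cyp51, Srebf2, Acaca and Acacb) and for 1, Idi1, in the second, and for none in both. How many of all genes did so was not counted. The mean chi-square between passages was 1.69 in the first and 1.16 in the second libraries over the members. Over all genes it was 1.15 and 1.40. For Insig2 the ratio of passage 39 to passage 9 was 1.06 (0.911 to 1.23) in the first and 1.09 (0.938 to 1.26) in the second libraries, so the order of its libraries lay within counting error. Acacb gave the largest ratio of passages, 2.54 (1.14 to 6.04) in the first libraries, but 1.09 (0.458 to 2.65) in the second. The summed level of all members was 1758 against 1404 RPKM at passage 9 and 1755 against 1404 at passage 39, or in the same order 0.557%, 0.400%, 0.555% and 0.403% of all RPKM.

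Other genes of lipid metabolism were read beside the members. Of 9 expressed genes of sterol transport and liver X receptors, 6 had both second libraries below and 3 above, with a median of -0.20. Stard4, a sterol carrier, was listed at 10.9 against 4.75 RPKM at passage 9 and at 11.3 against 5.30 at passage 39, lower in the second libraries by 1.01 on the log2 scale, more than any member. Apoe, the apolipoprotein that carries cholesterol between cells, was the other gene of this list past the size used for a call, at -0.66. In bulk libraries like these, fewer cells expressing a gene and less RNA per cell cannot be told apart.

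Not all lipid genes had the sign of the members. Of 12 other expressed fatty acid genes, 5 lay below and 6 above, with a median of 0.03, and Me1, the malic enzyme that supplies NADPH for lipid synthesis, was higher in the second libraries, at 4.83 against 12.4 and then 4.81 against 12.5 RPKM, a log2 difference of 1.21. Of 9 genes that process SREBPs or act with them, among them the proteases Mbtps1 and Mbtps2 and the NF-Y subunits, 4 lay below and 3 above, with a median of -0.02 and none past the size used for a call. The branches that leave the mevalonate pathway for dolichol, ubiquinone and prenyl groups had 1 of 6 genes below and 5 above, with a median of 0.15. Fatty acid oxidation had 0 of 8 genes below and 6 above, with a median of 0.19. These lists share their libraries with the members, and their shares are to be read against the 30.5% and 57.2% of all genes.

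**Figure D4:**
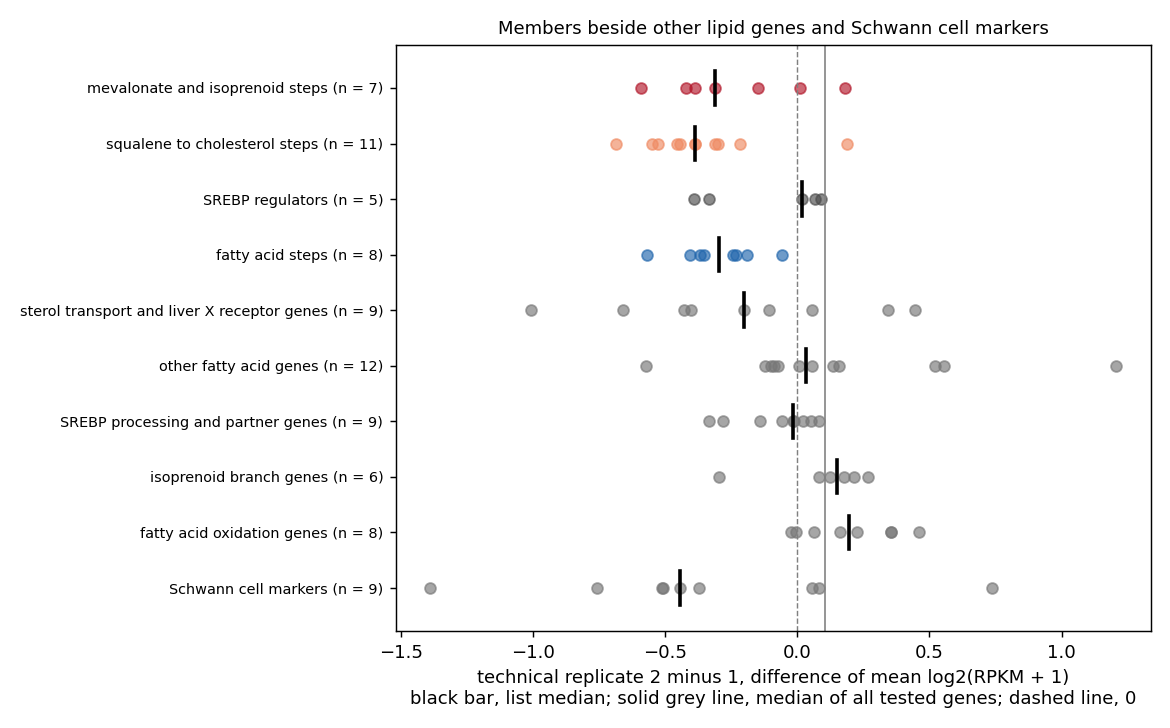
Differences between technical replicate numbers on the log2(RPKM + 1) scale for the 4 groups of members, 5 other lists of lipid genes and the Schwann cell markers, with a point per expressed gene and a black bar at each list's median. The medians of the sterol and fatty acid steps lie at -0.31, -0.39 and -0.30, those of the isoprenoid branches and of fatty acid oxidation at 0.15 and 0.19, and that of the Schwann cell markers at -0.44.

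Schwann cell markers moved with the same number. Of the 9 markers 6 lay below and 3 above, with a median of -0.44, and S100b and Mbp were lower past the size used for a call while Egr2 was higher. Their summed level was 4379 and 4376 RPKM in the first and 3563 and 3524 RPKM in the second libraries. The fibroblast sum, again almost wholly Col1a1, was 3349 and 3363 RPKM in the first and 3883 and 3777 RPKM in the second libraries. Col1a1 had a log2 difference of 0.19, against a median of 0.10 for all genes. The sum of all RPKM was also higher in the second libraries, as given below. The adipocyte markers Adipoq and Fabp4, of another cell that makes much fat, were at 0 in all 4 libraries, and the sum of that list did not exceed 0.0532 RPKM. The part of these markers' differences in the lower values of the lipid genes was not tested.

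Gene length moved with the technical replicate number too. Across 11023 genes, which are not independent replicates, Spearman's rho of the recovered length with the difference was -0.415, longer genes being lower in the second libraries. Against genes of about their own length, the 31 members had a median of -0.40. Then 4 genes (Acat2, Hmgcs1, Sqle and Tm7sf2) passed 1.5-fold, all lower, against 4.37% of all genes lower and 1.23% higher under the same correction. Overlap between libraries was still judged on the uncorrected values. The sum of all RPKM was 315847 to 315995 in the first and 348537 to 351061 in the second libraries. With each library scaled to a common sum, 12406 genes passed the minimum and their median was -0.03 in place of 0.10. Relative to it the members stood at -0.46, against -0.44 as deposited. The difference between the members with and without CCAAT in their window was small, with medians of -0.31 in 19 and -0.39 in 7 expressed genes. For GGGCGG it went the other way, with medians of -0.34 in 20 expressed genes with it and -0.23 in 6 without. Neither split was tested.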

How the data were processed

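RNA-Seq of 4 libraries of S16 cells (2 passages, 2 technical replicates each) was re-analysed. According to the study's methods, the authors made poly(A) libraries, sequenced single ends of 50 bases, aligned them to the rat rn5 genome with STAR, kept unique alignments and counted reads per gene with HTSeq without strand. The authors deposited RPKM values per gene symbol, from RefSeq gene models, and the tool that computed RPKM is not given in the sources used here.

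Levels are means of the 4 libraries. Differences were taken on the log2(RPKM + 1) scale, which understates changes of low genes, over the 11025 genes whose mean reached 1 RPKM. A call needed 1.5-fold and no overlap between the 2 libraries of either side. Whole reads, gene lengths and library totals were recovered from the ratios of values for 18113 of 18114 genes above 0 in 2 libraries, and a factor common to all 4 libraries can stay hidden. Intervals are exact (Clopper-Pearson for a library, conditional binomial for a ratio, 95%). They reflect the counting of reads alone, and reads made by PCR without identifiers do not each stand for a molecule. The chi-square used genes with 20 reads or more. The scripts were tested on simulated data. Python 3.11.15, numpy 2.4.6, pandas 2.3.3, scipy 1.17.1 and matplotlib 3.10.9 were used.

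All 33 members are named, and of other lists the genes past the call or needed beside a result. The members and lists were chosen with earlier results of these data known. Alternatives were 2 other scalings, another pseudocount, 2 other minimums, a 2-fold threshold, a length correction in 20 bins, and leaving out each library. A gene of the marker lists is not reported here.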

Additional observations from a re-analysis of the deposited data

Results flagged for a closer look

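The labelled technical replicates of Mvk moved in opposite directions in the 2 passages. On the log2(RPKM + 1) scale the second library was higher by 0.106 at passage 9, and the difference was -0.0855 at passage 39. Acacb did the same, with 0.0139 at passage 9 and -0.0512 at passage 39, on at most 21 reads in a library. The difference between the passages was not tested in either gene, because each passage holds a single pair of libraries, and all 4 ratio intervals included 1.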

How the results depend on the processing

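With the replicate number as a block, that is with passages compared within each number, the members called by passage were 0. Their median difference was -0.0055, which equals the value without the block by construction and so is no check of it. This pairing was added after seeing the data, and rests on the closeness of same-numbered libraries and not on the labels. The number of members called between technical replicate numbers was 2, and it became 5 under median-ratio scaling, 7 with a common sum of 1000000, 4 relative to genes of similar length and 0 at a 2-fold threshold. The share of all genes called lower moved too, from 3.17% to 4.28%, 7.7% and 4.37% in the first 3 of these. Hmgcs1 and Tm7sf2 were among those called in each of these but the last. The common sum made the values larger while the pseudocount and the minimum stayed at 1. The pseudocount thus weighed less and 12406 genes passed, so scaling was not the only change in that setting. The median of the members by number was -0.34, and it became -0.42 under median-ratio scaling, -0.50 with a common sum, -0.36 with a pseudocount of 0.1 RPKM, -0.31 without a filter and -0.40 relative to genes of similar length, with -0.35 to -0.31 when each library was left out. Members with both second libraries below both first numbered 25, and 24 to 29 under the alternatives. This count was chosen after seeing the data. The share of all genes ran from 26.5% to 45.9%, and both were highest with a common sum. The pseudocount, the fold threshold and the length correction could not change the count of members, by construction. Overlap was judged from the order of the libraries before the length correction, and the other minimums could only drop or add genes. The direction of Mvk, Srebf1 and Insig2 turned under median-ratio scaling, that of these and Scap with a common sum, and that of Mvk, Pmvk, Ebp and Insig2 relative to length. The median by passage of -0.0055 became -0.00077 with a common sum and -0.17 to 0.15 when a library was left out, since a lone library of either number then stood for a passage. The call by passage was 0 members under each alternative, which shows nothing of stability, since genes that separate by number cannot meet it while all 4 libraries are used. Depth limits Acacb and Elovl6, which had at most 21 reads in a library.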

Other observations

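The sterol-sensing liver X receptors had the opposite sign to most members, while a transporter that they regulate had the same sign as most members. Both second libraries lay above both first ones for the receptors, as for 57.2% of all genes. Nr1h2, a liver X receptor found in most cells, was listed at 25.4 RPKM in the first and 32.6 RPKM in the second library of the passage 9 cells, and at 25.1 and 32.0 RPKM for passage 39. Nr1h3, the other receptor, had a log2 difference of 0.45 at a mean of only 2.11 RPKM. Abca1, which exports cholesterol from cells and is a target of these receptors, was lower in the second libraries by a log2 difference of -0.43, and Soat1, which esterifies cholesterol for storage, by -0.40. None of these 4 reached 1.5-fold on the log2(RPKM + 1) scale.

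Fads3, a relative of Fads1 and Fads2 in the same gene cluster, had the opposite sign to both. It was listed at 105 and 157 RPKM, first and second library, for passage 9, and at 104 and 151 RPKM for passage 39. Its log2 difference was 0.55, against -0.19 for Fads1 and -0.35 for Fads2. Acss2, which makes acetyl-CoA from acetate where Acly makes it from citrate, likewise had 0.52 against -0.57 for Acly. These genes were picked after their values were seen.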
